A study of Homo sapiens with 6 samples.

Results

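The genes examined here build cholesterol and fatty acids, sense sterols, or export and traffic cholesterol, and they were compared between colorectal cancer cells with and without the secreted Wnt inhibitor DKK1. They were chosen by name from a fixed list of 36 genes, and 34 of them were measured by a probe set that the platform annotation pairs with that gene alone, out of 18404 genes in all. The others were FDFT1, which was not analysed here, and HSD17B7, whose probe set is shared with a pseudogene. The cells were of the DLD-1 line, from a human colorectal adenocarcinoma in which APC is mutated. A lentivirus had given them V5-tagged DKK1 with green fluorescent protein under doxycycline control (DLD-1/DKK1, in short the DKK1 arrays), or the same vector lacking DKK1 (DLD-1/Mock, in short the Mock arrays). Both groups were populations of transduced cells kept in medium with fetal bovine serum, and both received doxycycline for a day. RNA of 3 dishes per group was hybridised to 6 whole-transcript arrays, each measuring 32321 probe sets on the log2 scale. Vector and cell population cannot be told apart from DKK1 itself in this design, and p-values measure the spread between dishes.

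Cholesterol is made from acetyl-CoA in a long series of enzymatic steps. In the mevalonate arm, acetyl units are joined and reduced to mevalonate and then built into squalene, and in the sterol arm squalene is closed into a ring system and trimmed to cholesterol. The genes of both arms are switched on together by the membrane-bound transcription factor SREBP-2 (gene SREBF2) when sterols in the endoplasmic reticulum run low. SCAP escorts SREBP to the Golgi for cleavage, and INSIG proteins hold SCAP back when sterols are plentiful. SREBP-1 (gene SREBF1) drives the synthesis of fatty acids, whereas the liver X receptors respond to surplus sterols and switch on the exporters ABCA1 and ABCG1.

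The transgene was examined first. DKK1 had log2 values of 5.15, 5.74 and 5.01 in the Mock arrays and 12.30, 12.38 and 12.36 in the DKK1 arrays, a difference of 7.05 (limma adjusted p = 0.00015). The Mock values lay below the median brightness of all probe sets (6.81) and no test set them above background, so that the size of the change in transcript number is not known from it. Medians of single arrays ran from 6.76 to 6.86. Of all 6, Mock 2 was least like the rest (correlations of 0.9953 to 0.9969), and results are therefore also given without it. Of 9 colon epithelial markers, 8 lay above the median brightness of all probe sets, KRT20 being the exception. Of 6 leukocyte markers 1 lay above it, CD68 at 7.17 to 7.55, while PTPRC lay between 4.29 and 4.40. Of 7 fibroblast markers 1 lay above it, the collagen COL1A1 at 7.34 to 7.74, while DCN and LUM lay between 4.07 and 4.45.

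The main question was whether the cholesterol and fatty acid genes differed between the groups. No member passed a limma adjusted p of 0.05, against 0.0866% of all probe sets (28 of 32321) and 0.187% of the genes above the median brightness, and the smallest member value was 0.233, for INSIG1. At an unadjusted limma p under 0.05, 8 of the 34 members (23.5%) were higher in the DKK1 arrays and 0 were lower, against 4.02% higher and 5.21% lower among all probe sets. The 8 members were INSIG1, HMGCS1, LPIN1, STARD4, LSS, FDPS, EBP and ACACA. Of the 34 members, 32 lay above the median brightness, and among the 11256 genes above it the shares were 6.64% higher and 4.90% lower. The groups did not overlap in 16 members, with the DKK1 arrays on the upper side in all 16 and on the lower side in 0, as against 7.91% of all probe sets with the DKK1 arrays above and 8.55% with them below, or 13.9% and 8.91% of the genes above the median brightness. Such a gene has an exact permutation p of 0.1, the smallest that 3 arrays against 3 allow.

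The differences were small in every member. In all, 29 of the 34 had a log2 fold change above 0, as had 46.9% of all probe sets and 56.0% of the genes above the median brightness. The median log2 fold change was 0.074 over the members, -0.006 over all probe sets and 0.011 over the genes above the median brightness. The single values ran from -0.02 to 0.22, and no 95% interval reached beyond -0.19 or 0.35, the upper end being a 1.28-fold level for STARD4. In RNA from bulk cells, a shift in every cell and a larger shift in some cells cannot be told apart.

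**Figure D1:**
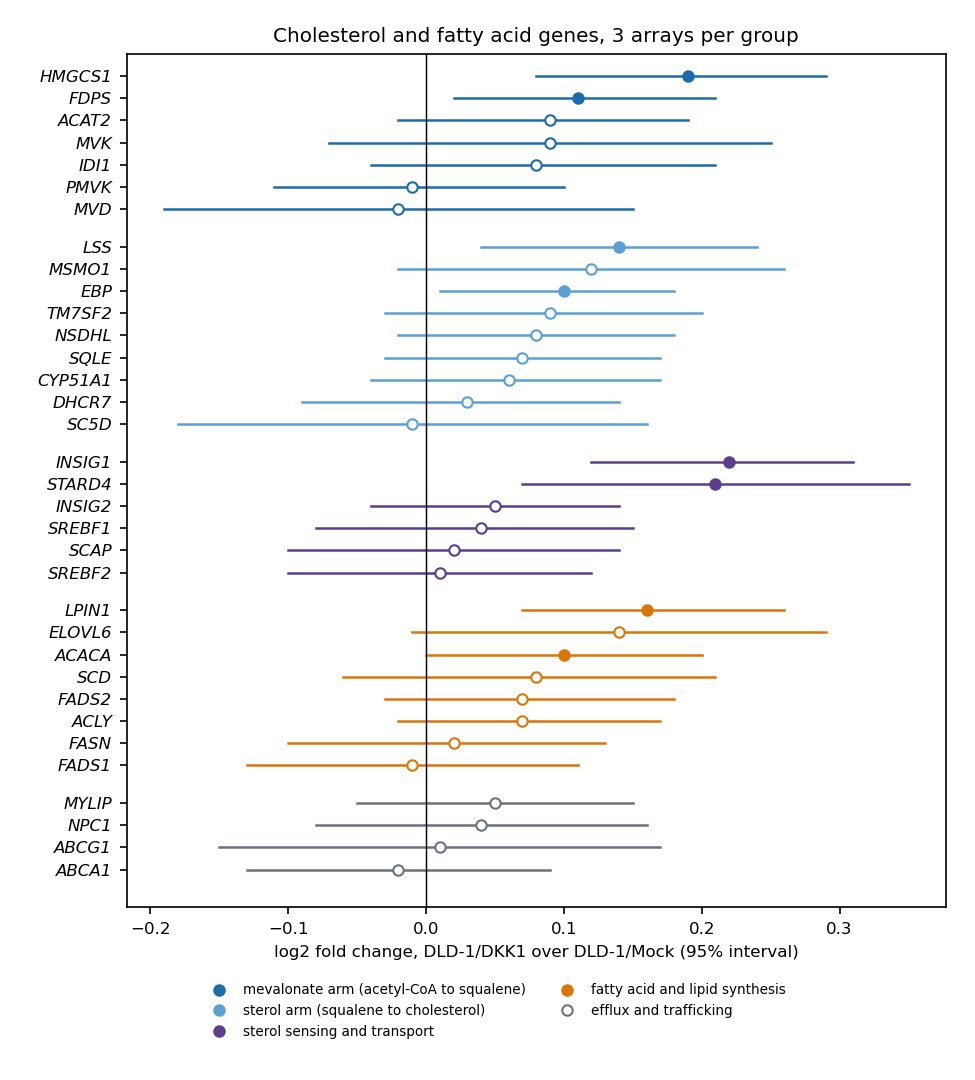
Log2 fold change of DKK1 over Mock cells (horizontal axis) for the 34 measured genes, coloured by their role, with points for the limma estimate and lines for its 95% interval, 3 arrays per group. Filled points mark the 8 genes with an unadjusted p under 0.05, all of them above 0, and INSIG1 lies highest at 0.22.

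The members with the largest estimates, INSIG1 and STARD4, belonged to the sterol sensing and transport genes. INSIG1, which retains SCAP in the endoplasmic reticulum and is itself switched on by SREBP, had log2 values of 10.29, 10.35 and 10.32 in the Mock arrays and of 10.54, 10.56 and 10.50 in the DKK1 arrays. Every DKK1 array thus lay above every Mock array, with the groups further apart than the spread within either. The log2 fold change was 0.22 (SE 0.04, 95% interval 0.12 to 0.31; limma adjusted p = 0.233), which corresponds to a 1.16-fold level. INSIG1 stood at rank 180 of all probe sets by p-value, and its log2 fold change was 0.23 without Mock 2.

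STARD4, a soluble protein that carries sterol between membranes, measured 8.55, 8.53 and 8.72 in the Mock arrays and 8.79, 8.83 and 8.82 in the DKK1 arrays. Mock 3 was the highest of its group and came close to the lowest DKK1 array, so that the interval was wider than that of INSIG1. The log2 fold change of STARD4 was 0.21 (SE 0.06, 95% interval 0.07 to 0.35; limma adjusted p = 0.443).

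The other sensing genes had values near 0. SREBF2 had a log2 fold change of 0.01 (95% interval -0.10 to 0.12) and SREBF1 one of 0.04 (-0.08 to 0.15). SCAP, the escort of both, had 0.02 (interval -0.10 to 0.14). Arrays of the groups overlapped for these 3 genes. INSIG2, the paralogue of INSIG1, had log2 values of 7.97, 7.94 and 7.91 in the Mock arrays and of 8.00, 7.98 and 7.98 in the DKK1 arrays. Its groups did not overlap, yet the difference was only 0.05, with an interval of -0.04 to 0.14. In the group of 6 sensing and transport genes, 6 had a log2 fold change above 0, the median was 0.042, and 2 had an unadjusted p under 0.05. Among the genes above the median brightness, 56.0% were above 0 and 6.64% were higher at that p. Among all probe sets the shares were 46.9% and 4.02%.

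In the mevalonate arm, HMGCS1 had the largest estimate. HMGCS1, the cytosolic synthase that makes HMG-CoA, measured 10.93, 10.94 and 10.85 in the Mock arrays and 11.13, 11.07 and 11.08 in the DKK1 arrays. All DKK1 arrays were above all Mock arrays, and the gap exceeded the SD of each group (0.05 and 0.03). The log2 fold change was 0.19 (SE 0.04, 95% interval 0.08 to 0.29; limma adjusted p = 0.364).

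FDPS, which makes farnesyl diphosphate, the branch point to sterols and to protein prenylation, had 10.03, 10.03 and 9.95 in the Mock arrays and 10.10, 10.12 and 10.13 in the DKK1 arrays. The groups did not overlap, and the log2 fold change was 0.11 (SE 0.04, 95% interval 0.02 to 0.21; limma adjusted p = 0.515). The other enzymes of this arm did not reach an unadjusted p of 0.05. ACAT2, a cytosolic thiolase that joins acetyl-CoA units, had a log2 fold change of 0.09, mevalonate kinase (MVK) one of 0.09, and IDI1, which isomerises the isoprene unit, one of 0.08. The phosphomevalonate kinase PMVK had -0.01 and the decarboxylase MVD -0.02, and the arrays of the groups overlapped for all 5 of these genes. Without Mock 2 the estimate of MVK was 0.03 and that of IDI1 0.05. Over the 7 measured genes of the arm, 5 were above 0, with a median log2 fold change of 0.085, and without Mock 2 all 7 were above 0, with a median of 0.052. Of the genes above the median brightness, 56.0% were above 0 with all 6 arrays.

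The sterol arm began with SQLE, the epoxidase that opens the way to the ring closure. SQLE had log2 values of 11.47, 11.47 and 11.50 in the Mock arrays and of 11.58, 11.57 and 11.50 in the DKK1 arrays, so DKK1 3 lay above Mock 3 by less than the second decimal shows, and the log2 fold change of 0.07 had an interval of -0.03 to 0.17. LSS, which closes the ring to lanosterol, measured 9.83, 9.91 and 9.86 in the Mock arrays and 9.98, 10.00 and 10.03 in the DKK1 arrays. The groups were separate, with a log2 fold change of 0.14 (SE 0.04, 95% interval 0.04 to 0.24; limma adjusted p = 0.462). EBP, a sterol isomerase, had 10.05, 10.06 and 10.03 in the Mock arrays and 10.14, 10.15 and 10.15 in the DKK1 arrays. The arrays of EBP were the most alike within groups among the members shown in full, and the log2 fold change was 0.10 (SE 0.04, 95% interval 0.01 to 0.18; limma adjusted p = 0.516).

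Further enzymes of the sterol arm had positive estimates that did not reach an unadjusted p of 0.05. They were MSMO1, an oxidase that removes methyl groups (log2 fold change 0.12), TM7SF2, a sterol reductase (0.09), and NSDHL, a dehydrogenase of the same demethylation (0.08). The groups of MSMO1, NSDHL and SQLE did not overlap, but they nearly touched. MSMO1 had 12.13 in Mock 3 against 12.14 in DKK1 3, and NSDHL 10.91 in Mock 3 against 10.93 in DKK1 3. Without Mock 2 the estimate of MSMO1 was 0.06, and that of TM7SF2 was 0.12 with an unadjusted p of 0.0408. DHCR7, the last reductase before cholesterol, had 0.03 and the desaturase SC5D -0.01. CYP51A1, the lanosterol demethylase, was the one member with a further probe set. Its brighter probe set had a log2 fold change of 0.06 (interval -0.04 to 0.17) and the other -0.17 (-0.43 to 0.10), so its direction is uncertain. In the arm as a whole, 8 of 9 measured genes were above 0, with a median of 0.080, and without Mock 2 it was 7 of 9, with a median of 0.061. With all 6 arrays, 56.0% of the genes above the median brightness were above 0.

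**Figure D2:**
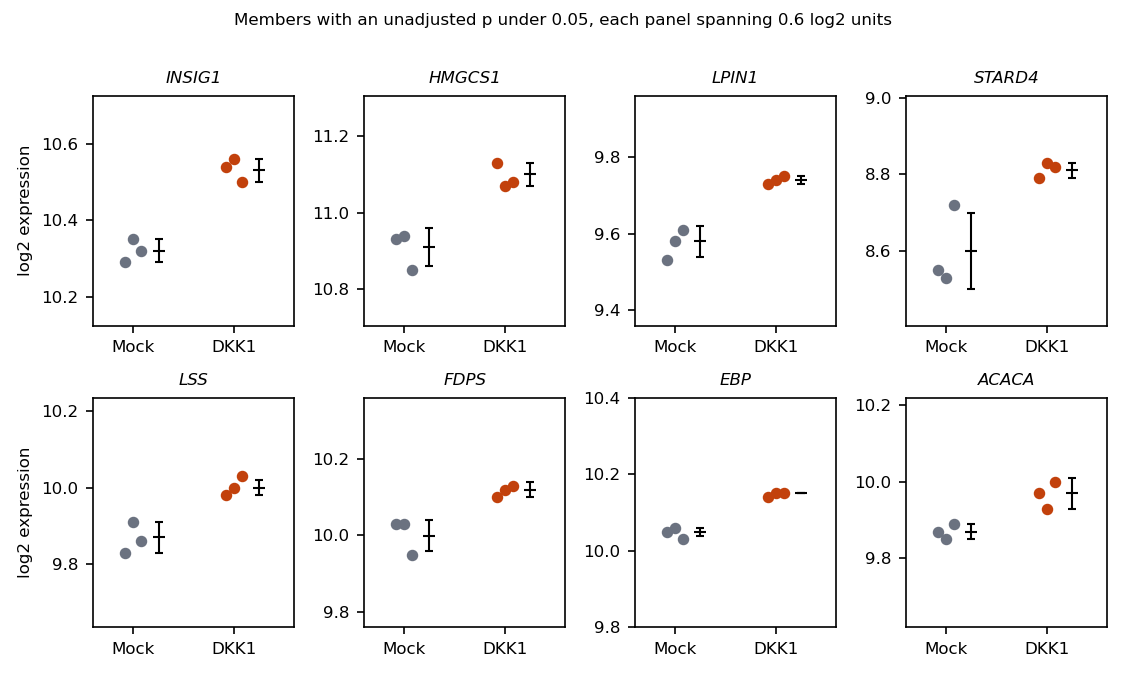
Log2 expression (vertical axis) of the Mock and the DKK1 arrays for the 8 genes with an unadjusted p under 0.05, where each point is 1 array and the whiskered bar gives mean ± SD over 3 arrays. In each of the 8 panels all DKK1 arrays lie above all Mock arrays, and Mock 3 of ACACA comes nearest with 9.89 against 9.93.

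Promoter sequences are shown for INSIG1, STARD4 and HMGCS1, which had the largest estimates among the sterol genes, and for SREBF2, whose estimate was near 0. They come from RefSeq (GRCh38.p14), run from 250 bases before to 50 bases after the gene start, and were found for 30 of the 34 members. The windows were searched on both strands for CCAAT (the motif of the factor NF-Y, which works beside SREBP at many sterol promoters) and for TCACNCCAC, a strict form of the sterol regulatory element. GGGCGG (the GC box) and CACGTG (the E-box) were searched in the same way and are not marked. Capitals mark CCAAT or its reverse complement and, in SREBF2 alone, the TCACNCCAC match as well.
INSIG1, chr7:155297628-155297927, plus strand: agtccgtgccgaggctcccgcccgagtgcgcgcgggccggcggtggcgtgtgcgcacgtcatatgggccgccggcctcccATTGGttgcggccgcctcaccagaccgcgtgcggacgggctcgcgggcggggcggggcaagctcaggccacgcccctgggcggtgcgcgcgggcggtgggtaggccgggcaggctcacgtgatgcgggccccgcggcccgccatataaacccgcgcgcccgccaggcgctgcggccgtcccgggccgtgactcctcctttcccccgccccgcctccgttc
HMGCS1, chr5:43313363-43313662, minus strand, the upstream one of its starts: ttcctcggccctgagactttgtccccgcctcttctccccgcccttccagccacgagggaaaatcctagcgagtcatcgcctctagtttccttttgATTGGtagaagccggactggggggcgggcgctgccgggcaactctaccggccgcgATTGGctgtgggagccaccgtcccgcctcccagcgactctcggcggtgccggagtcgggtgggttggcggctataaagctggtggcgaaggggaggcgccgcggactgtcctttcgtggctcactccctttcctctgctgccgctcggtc
STARD4, chr5:111512486-111512785, minus strand: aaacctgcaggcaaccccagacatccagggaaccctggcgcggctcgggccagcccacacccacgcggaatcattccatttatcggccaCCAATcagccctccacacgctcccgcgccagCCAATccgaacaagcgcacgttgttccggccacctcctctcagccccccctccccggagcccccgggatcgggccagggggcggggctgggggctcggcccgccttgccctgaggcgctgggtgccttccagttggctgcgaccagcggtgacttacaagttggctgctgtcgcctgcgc
SREBF2, chr22:41832855-41833154, plus strand: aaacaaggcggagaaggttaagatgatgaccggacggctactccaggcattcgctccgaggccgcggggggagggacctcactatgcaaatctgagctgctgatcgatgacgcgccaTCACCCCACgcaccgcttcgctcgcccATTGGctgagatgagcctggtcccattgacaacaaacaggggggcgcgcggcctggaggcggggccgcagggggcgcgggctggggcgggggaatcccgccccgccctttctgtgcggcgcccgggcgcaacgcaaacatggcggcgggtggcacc

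INSIG1 held 1 CCAAT match, HMGCS1 2 and STARD4 2, the nearest of them 100 bases before the start. SREBF2 held 1, and its TCACNCCAC match lay 27 bases from it. A CCAAT match was present in 6 of the 6 sterol genes with an unadjusted p under 0.05. Of the 22 members of any class (sterol, fatty acid or efflux) with a promoter sequence that were not higher at that p, 13 held it (59.1%). It was present in 15 of all 20 sterol genes with a promoter sequence (75.0%), which include those 6. Of the fatty acid genes 4 of 7 held it (57.1%), and of the efflux genes 1 of 3. Among the fatty acid genes with an unadjusted p under 0.05, ACACA held it and LPIN1 did not. The motif is common, since 39.7% of all genes with a promoter sequence and 42.8% of those above the median brightness held it. A gene counted as holding a motif if any of its annotated starts did, and a match is not a binding site. TCACNCCAC was found in 1 of the 30 members (SREBF2) and in 1.39% of all genes, and other forms of the sterol regulatory element were not searched. GGGCGG was found in 29 of the 30 members (96.7%) and in 78.3% of the genes above the median brightness. Like CCAAT, it was present in 6 of the 6 sterol genes with an unadjusted p under 0.05. CACGTG was found in 5 of the 30 members (16.7%) and in 12.7% of the genes above the median brightness.

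Among the genes of fatty acid and glycerolipid synthesis, LPIN1 had the largest estimate. LPIN1, a phosphatidate phosphatase on the way to triglycerides and phospholipids, measured 9.53, 9.58 and 9.61 in the Mock arrays and 9.73, 9.74 and 9.75 in the DKK1 arrays. The groups were separate, and the DKK1 arrays were close to one another. The log2 fold change was 0.16 (SE 0.04, 95% interval 0.07 to 0.26; limma adjusted p = 0.395). ACACA, the acetyl-CoA carboxylase that makes malonyl-CoA, had 9.87, 9.85 and 9.89 in the Mock arrays and 9.97, 9.93 and 10.00 in the DKK1 arrays. Its groups did not overlap either, and the log2 fold change was 0.10 (SE 0.04; limma adjusted p = 0.536). The unadjusted p of 0.0479 was just inside the threshold, and it was 0.0916 without Mock 2.

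The remaining enzymes included FASN, the fatty acid synthase that uses this malonyl-CoA, with 10.84, 10.90 and 10.75 in the Mock arrays and 10.83, 10.86 and 10.85 in the DKK1 arrays. The FASN arrays of both groups overlapped, and the log2 fold change was 0.02 (interval -0.10 to 0.13). ELOVL6, which lengthens saturated fatty acids, had 0.14, with an interval of -0.01 to 0.29, and this estimate was 0.08 without Mock 2. The desaturases SCD, FADS2 and FADS1 had log2 fold changes of 0.08, 0.07 and -0.01, and the SCD estimate was 0.03 without Mock 2. ACLY, which supplies cytosolic acetyl-CoA from citrate to both pathways, had 0.07, with an interval of -0.02 to 0.17. In all, 7 of 8 fatty acid genes were above 0, the median was 0.075, and 2 had an unadjusted p under 0.05. In 5 of them (LPIN1, ACACA, ACLY, FADS2 and ELOVL6) the groups did not overlap, with the DKK1 arrays on the upper side. Those of ACLY, FADS2 and ELOVL6 nearly touched. In ACLY, Mock 2 and DKK1 1 were both 11.40 to the second decimal. FADS2 had 8.81 in Mock 1 against 8.82 in DKK1 2, and ELOVL6 9.75 in Mock 1 against 9.76 in DKK1 3. Groups without overlap and with the DKK1 arrays above were seen in 7.91% of all probe sets and 13.9% of the genes above the median brightness. Of the latter genes, 56.0% were above 0 and 6.64% were higher at an unadjusted p under 0.05.

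The efflux and trafficking genes had log2 fold changes between -0.02 and 0.05. The exporters ABCA1 and ABCG1 were dim, with log2 values of 4.94 to 5.06 and of 5.70 to 5.88 over the 6 arrays, below the median brightness of 6.81, so that a change in them could have been missed. Their log2 fold changes were -0.02, with an interval of -0.13 to 0.09, and 0.01, with an interval of -0.15 to 0.17. NPC1, which releases cholesterol from lysosomes, had 0.04, with an interval of -0.08 to 0.16. MYLIP, a ubiquitin ligase that removes lipoprotein receptors and is switched on by liver X receptors, had 9.00, 9.00 and 8.97 in the Mock arrays and 9.02, 9.01 and 9.09 in the DKK1 arrays. The groups of MYLIP did not overlap, but they nearly touched, and the log2 fold change of 0.05 had an interval of -0.05 to 0.15. None of the 4 had an unadjusted p under 0.05, and the median was 0.025, or 0.038 without Mock 2, when all 4 were above 0. Over NPC1 and MYLIP alone, which lay above the median brightness, the median was 0.045. That of the sensing and transport genes was 0.042. The difference between the efflux genes and the synthesis genes was not tested, as the lists were chosen with earlier results known.

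**Figure D3:**
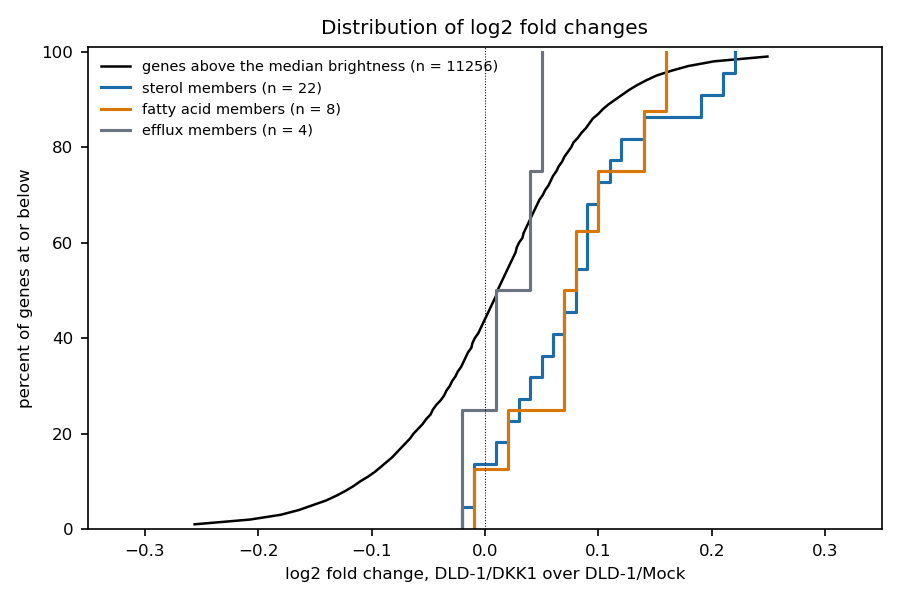
Percent of genes (vertical axis) with a log2 fold change of DKK1 over Mock cells at or below the value on the horizontal axis, for the 22 sterol, 8 fatty acid and 4 efflux genes and for the 11256 genes above the median brightness. The steps of the sterol and fatty acid genes lie to the right of the line over most of their height, with medians of 0.082 and 0.075 against 0.011, and those of the efflux genes lie around a median of 0.025.

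The groups were then followed array by array, as the median over genes of the deviation from each gene's mean over the 6 arrays. For the 16 enzymes of both sterol arms it was -0.032, -0.059 and -0.020 in the Mock arrays and 0.051, 0.057 and 0.012 in the DKK1 arrays. The DKK1 arrays were all on the upper side, DKK1 3 the least. For the fatty acid genes it was -0.018, -0.071 and -0.043 in the Mock arrays and 0.030, 0.041 and 0.047 in the DKK1 arrays. Mock 2 was the lowest array in both groups of genes, and among the genes above the median brightness it was also the lowest, at -0.015. The part of this array in the result was measured by leaving it out. The median log2 fold change of the 22 sterol genes was then 0.060 in place of 0.082, that of the fatty acid genes 0.066 in place of 0.075, and the number with an unadjusted p under 0.05 was 7 in place of 6 and 1 in place of 2. For comparison, 3.30% of all probe sets were higher and 4.51% lower at that p without Mock 2.

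**Figure D4:**
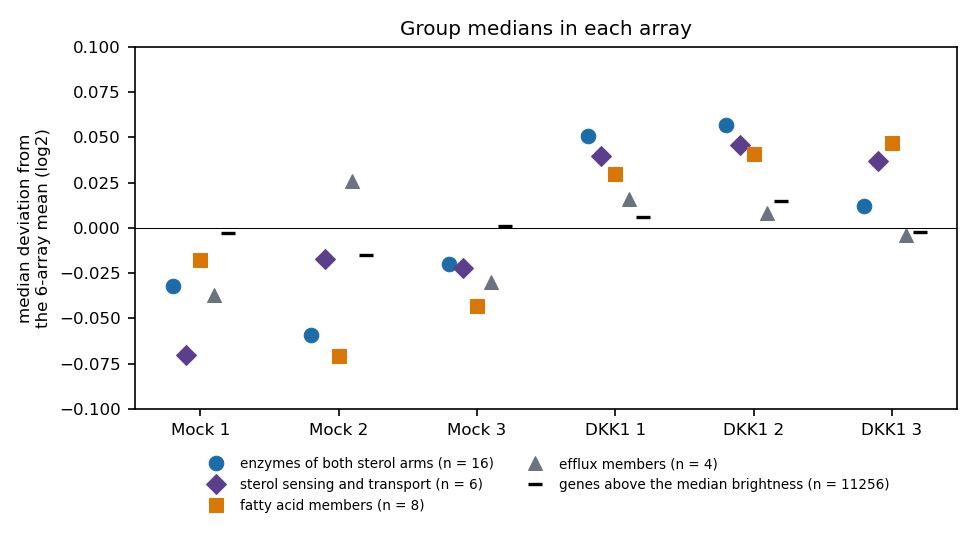
Median over genes of the deviation from the mean of the 6 arrays (vertical axis, log2) in each array (horizontal axis), for 16 sterol enzymes, 6 sensing and transport genes, 8 fatty acid genes, 4 efflux genes and the 11256 genes above the median brightness. The synthesis and sensing genes lie below 0 in every Mock array and above 0 in every DKK1 array, while the efflux genes lie on both sides in both groups.

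INSIG1, HMGCS1, STARD4, LSS and LPIN1 had an unadjusted limma p under 0.05 in all 6 fits that left out 1 array, whereas FDPS had it in 2, EBP in 1 and ACACA in 1. After each array was centred on its own median, every estimate moved up by 0.052. Then 11 of 22 sterol genes and 5 of 8 fatty acid genes were higher at an unadjusted p under 0.05, beside 9.51% of all probe sets.

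Other genes of lipid metabolism were counted from further lists. At an unadjusted p under 0.05, 4.02% of all probe sets were higher and 5.21% lower, and 6.64% and 4.90% of the genes above the median brightness. A log2 fold change above 0 was seen in 46.9% of all probe sets and 56.0% of those genes. Of 12 other sterol genes, 0 passed after adjustment with limma over all probe sets and 1 had an unadjusted p under 0.05, the lipoprotein receptor SCARB1 with a log2 fold change of 0.13 (limma adjusted p = 0.483). The median of these genes was 0.032 with 9 of 12 above 0, and 0.016 with 8 of 12 above 0 without Mock 2. Of 15 other fatty acid synthesis genes, 0 passed and 3 had an unadjusted p under 0.05, of which 2 were higher and 1 was lower. Their median was 0.004, or -0.010 without Mock 2. The higher ones included ACSS2, which makes acetyl-CoA from acetate, with a log2 fold change of 0.16, and the lower one was MLXIPL. MLXIPL, the glucose-responsive transcription factor ChREBP of lipid synthesis genes, measured 8.59, 8.75 and 8.68 in the Mock arrays and 8.26, 8.25 and 8.28 in the DKK1 arrays. The arrays of the groups lay well apart, with a log2 fold change of -0.41 (SE 0.05, 95% interval -0.53 to -0.29; limma adjusted p = 0.0696). This estimate was larger in size than that of any member, and it was negative, as were the estimates of 5 members, none of them beyond -0.02. It passed the adjusted threshold in 3 of 15 alternative fits, which were run after its value had been seen.

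Of 8 liver X receptor genes, 0 passed and 0 had an unadjusted p under 0.05, with a median of -0.002, or 0.012 without Mock 2. The largest in size were the receptor partner RXRB, at 0.11, and the apolipoprotein APOE, at -0.11. By the brightest probe set of each gene, the groups did not overlap in 2 of the 8, APOE among them. The DKK1 arrays lay below in these 2, and above in 0 of the 8. Among all probe sets the shares were 8.55% below and 7.91% above. The 3 probe sets of RXRB disagreed in sign. Its dimmer ones had -0.04 and 0.23, the latter with an unadjusted limma p of 0.0136 and groups that did not overlap. Fatty acid oxidation, which runs against synthesis, had 11 of 15 genes above 0, beside 46.9% of all probe sets and 56.0% of the genes above the median brightness, and a median of 0.085. Without Mock 2 that median was 0.038, with 10 of 15 genes above 0. Then 4 rather than 2 were higher at an unadjusted p under 0.05, beside 3.30% of all probe sets. With all arrays, none passed after adjustment with limma, and 2 were higher at an unadjusted p under 0.05, beside 4.02% of all probe sets. Among them was CPT1A, which admits fatty acids to mitochondria (0.13). The 1 lower gene was the coactivator PPARGC1A (-0.21), beside 5.21% of all probe sets. Among the leukocyte markers, CD68 and CD14 had log2 fold changes of -0.26 and -0.27 at an unadjusted p under 0.05, with 4 of 6 markers below 0. The mean of PTPRC was 4.34 in both groups. The part of these markers in the result was not tested.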

How the data were processed

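Per the study's methods, the authors preprocessed the array scans in R by robust multichip averaging, that is, background correction, equalisation between arrays and summary of probes, and deposited the resulting log2 values. A change shared by most transcripts is removed that way and dim differences are compressed. For these tools no version is given in the sources used here. Doxycycline is at 10 mg/ml in the labels and in micrograms in the methods.

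All 32321 probe sets were fitted with limma 3.58.1 in R 4.3.3 (lmFit, eBayes) for the difference DLD-1/DKK1 minus DLD-1/Mock, two-sided, under Benjamini-Hochberg adjustment over all of them and a threshold of 0.05. Of these probe sets 19158 had 1 gene symbol, 1388 several and 11775 none. The brightest probe set was kept for each of 18404 genes, after symbols were updated by gene number (19128 matched). Single values were also tested by exact permutation. The steps were tested on simulated data, in which all added changes were larger in size than any member estimate. That check therefore says nothing about changes as small as those of the members. Members and lists were chosen with earlier results of these data known. Every member could be named, and of the other lists the 2 genes with the smallest p under 0.05, or otherwise the largest fold changes. Alternatives were other normalisations (quantile, median centring, cyclic loess), filters, priors, array weights, a replicate block, the mean of a gene's probe sets and each array left out. Figures were drawn with matplotlib 3.10.9.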

Additional observations from a re-analysis of the deposited data

How the results depend on the processing

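No member passed the adjusted threshold under any of the 16 alternatives, where the lowest limma adjusted p of a member was 0.106. DKK1 stayed at 7.05 without moderation but lost its call. Higher sterol genes at an unadjusted p under 0.05 numbered 11 after median centring but 4 in place of 6 with quantile normalisation, cyclic loess, the replicate block, or without DKK1 1, DKK1 2 or DKK1 3. Higher fatty acid genes numbered 5 after centring, against 1 with quantile normalisation, 1 with cyclic loess, 1 with the replicate block and 1 to 2 with 1 array left out (1 without Mock 2, Mock 3, DKK1 1 or DKK1 3). Of all probe sets, 4.02% were higher at that p in the main fit and 9.51% after centring. This share was 4.33% with quantile normalisation, 4.38% with cyclic loess and 3.14% with the block. It was 2.44%, 2.84% and 3.65% without DKK1 1, DKK1 2 and DKK1 3, and 3.30% and 4.37% without Mock 2 and Mock 3. Medians after centring were 0.134 for sterol, 0.127 for fatty acid and 0.077 for efflux genes, which follows from the shift of 0.052. The sterol median was 0.061 with cyclic loess and 0.060 to 0.095 with 1 array left out, and the efflux median then ran from -0.001 to 0.038, the lower end without Mock 1. The cause was not tested for the other settings. Same-numbered dishes did not deviate together (r = 0.10, 0.01 and -0.14), so the numbers were not taken as pairs. The block cut the probe sets past the threshold from 28 to 1. These numbered 17 after centring, 66 above the median brightness, 98 among annotated probe sets, 53 with a trended and robust prior, 59 with array weights, between 2 and 6 when 1 array was left out, and 1 without moderation.

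Of the 34 members, 23 kept their sign in every setting. The other 11 had estimates of at most 0.06 in size. Turned values were, for PMVK, 0.027 with quantile normalisation, 0.047 after centring, 0.024 with cyclic loess and 0.012 with array weights. MVD had 0.030 after centring and 0.019 with weights, SC5D 0.044, FADS1 0.043 and ABCA1 0.031 after centring, and FADS1 0.001 with cyclic loess. CYP51A1 had -0.050 as the mean of its probe sets, DHCR7 -0.002 with weights, SCAP -0.003 with quantile normalisation, SREBF2 -0.012 with it and -0.010 with cyclic loess, and FASN -0.004 with the latter. With 1 array left out the ranges were -0.039 to 0.007 for ABCA1, -0.033 to 0.066 for ABCG1, -0.005 to 0.059 for DHCR7, -0.041 to 0.024 for FADS1, -0.023 to 0.051 for FASN, -0.064 to 0.036 for MVD, -0.024 to 0.024 for PMVK, -0.079 to 0.038 for SC5D, -0.012 to 0.052 for SCAP and -0.017 to 0.034 for SREBF2. MLXIPL, run through the alternatives after its value was seen, ranged from -0.45 to -0.36 and passed in 3 of 15 of them (limma adjusted p from 0.0197 to 0.41).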
